A study of Homo sapiens with 12 samples.

Results

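The mitochondrial genome encodes 13 of the proteins of the respiratory chain and of ATP synthase, and 8 of these 13 genes are described here: ND1, ND2, ND3, ND4, ND4L, ND5 and ND6, which encode the 7 mitochondrially made subunits of complex I, and CYTB, which encodes cytochrome b of complex III. They were found by their symbols, which the deposited table writes without the MT- prefix, and are 8 of its 19516 genes with a symbol. The set was chosen by its values in these libraries: ND1 and CYTB had been put forward for how far they rose with extract in MDA-MB-231, so the values of that contrast are a description and carry no p-value. The library numbered E7 stood apart in the same values, and the main results that rest on it are given with and without it.

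Complex I takes electrons from NADH, passes them to ubiquinone and pumps protons across the inner mitochondrial membrane. All of its mitochondrially encoded subunits sit in the membrane arm, and the rest of the enzyme is built from nuclear genes. Complex III takes the electrons on from ubiquinol to cytochrome c, and cytochrome b forms its quinone sites. The genes are transcribed as long RNAs from both strands of the circular genome, are cut out mostly at the tRNAs that lie between them, and most of the mRNAs then receive a poly-A tail. ND6 is the only protein gene read from the other strand, and its human mRNA is known to carry little or no tail.

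The study sequenced RNA of 2 human breast cancer lines, MDA-MB-231 and HCC1937, both from triple-negative tumours, in 4 groups of 3 libraries. The medium was DMEM for MDA-MB-231 and RPMI 1640 for HCC1937, both with fetal bovine serum and antibiotics, and the labels give both genotypes as wild type. The controls of each line (E1 to E3 and E25 to E27) received no extract, and what they received in its place is not given in the sources used here. Treated cultures received an aqueous extract of the succulent Kalanchoe pinnata for 72 h, at 140 µg/mL in MDA-MB-231 (E7 to E9) and at 66 µg/mL in HCC1937 (E31 to E33), so an effect of the line cannot be told apart from that of its medium or its concentration. The labels do not state that the libraries of a group came from separate cultures, so p-values cover only how far these libraries vary, and that variation may be technical.

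Library totals ran from 16170342 to 31337259 counts. Levels are given as CPM, read counts brought to a common library size, after TMM scaling, which sets that size from the bulk of the genes. They are relative to the other mRNAs of a library, and in cultures measured in bulk fewer cells of a kind and less RNA per cell cannot be told apart. E7 had a Spearman correlation of 0.967 with E8 and 0.966 with E9 over the tested genes, while the pairs of libraries in the other groups and E8 with E9 lay between 0.9968 and 0.9982. Estimated per group, the coefficient of variation beyond counting error was 0.0415 to 0.0451, except among E7 to E9, where it was 0.296. The line labels were checked on markers. VIM, a mesenchymal filament gene, had 3736 CPM in the MDA-MB-231 controls and 13.9 in HCC1937 controls. Of the other mesenchymal markers, ZEB1 had 60.3 and 1.44 CPM and AXL 496 and 234. SPARC went the other way, with 8.64 and 39.1. The epithelial genes CDH1 and KRT5 had no reads in any MDA-MB-231 library. KRT8 and KRT18 were expressed in both lines, with 472 and 273 CPM in MDA-MB-231 controls and 2305 and 1259 in HCC1937 controls. The defining blood and liver genes PTPRC, CD3E, HBB and ALB had 33, 18, 3 and 3 reads over all 12 libraries. Among further markers of other cell types, COL1A1 had 21.3 and 18.8 CPM in the MDA-MB-231 and HCC1937 controls. PECAM1 had 0.931 and 12.7 CPM there, and VWF 0.236 and 1.64. Of the receptor genes, ERBB2 was measured at 51.5 and 146 CPM in the MDA-MB-231 and HCC1937 controls. ESR1 had 0.386 and 7.19 CPM there, and PGR 2.88 and 0.0117. The 8 markers of other cell types summed to 325 to 341 CPM in the MDA-MB-231 controls and 433 to 530 with extract, and to 94.9 to 98.4 and 194 to 196 in HCC1937. CD68, a lysosomal gene that many cells express, was the highest of the 8 in every library, and the part of these markers in the results was not tested.

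The 3′ ends of the coding regions are shown because capture on poly-T beads starts from the tail that is added there. They come from GENCODE 29 on GRCh38, are written 5′ to 3′ on the coding strand, and capitals mark the bases of the last codon. In 5 of the 8 genes the genome holds only a T, or TA, of the stop codon, and the added tail supplies the rest.
ND1 (chrM:4233-4262, + strand): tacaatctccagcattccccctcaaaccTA
ND2 (chrM:5482-5511, + strand): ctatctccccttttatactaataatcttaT
ND3 (chrM:10375-10404, + strand): gactacaaaaaggattagactgaaccgaaT
ND4L (chrM:10737-10766, + strand): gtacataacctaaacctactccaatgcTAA
ND4 (chrM:12108-12137, + strand): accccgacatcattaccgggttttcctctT
ND5 (chrM:14119-14148, + strand): ctcatcctaaccctactcctaatcacaTAA
ND6 (chrM:14149-14178, − strand): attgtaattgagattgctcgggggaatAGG
CYTB (chrM:15858-15887, + strand): taattgaaaacaaaatactcaaatgggccT
ND1, ND2, ND3, ND4 and CYTB end in such a partial codon, and each is followed on its own strand by a tRNA gene. The other 3 have a complete last codon: ND4L runs into ND4, ND5 ends where ND6 ends on the opposite strand, and ND6 ends in AGG.

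ND4L and ND4 are carried on a shared mRNA and their coding regions overlap by 7 bases. The junction is printed because reads across it belong to both genes, with the shared bases in capitals.
ND4L-ND4 junction (chrM:10727-10799, + strand): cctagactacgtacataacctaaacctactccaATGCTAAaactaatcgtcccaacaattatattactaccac
All 8 genes lack introns and lie on chromosome M as a single coding exon. They span 3307 to 4262 (ND1, 956 bases), 4470 to 5511 (ND2, 1042 bases), 10059 to 10404 (ND3, 346 bases), 10470 to 10766 (ND4L, 297 bases), 10760 to 12137 (ND4, 1378 bases), 12337 to 14148 (ND5, 1812 bases), 14149 to 14673 (ND6, 525 bases) and 14747 to 15887 (CYTB, 1141 bases). GENCODE names 257 nuclear pseudogenes of these 8 genes, from 22 of ND3 to 42 of CYTB, so reads could be split between near-identical copies, and how the quantification treated them is not given in the sources used here. Nor is the strand setting of the quantification given, so reads of ND6 and of the RNA opposite it cannot be told apart with certainty.

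ND2, ND4 and ND5 encode the 3 large subunits that resemble sodium-proton antiporters and form the proton channels. For ND2 the MDA-MB-231 controls had 1205, 1141 and 1149 CPM and the extract libraries 21173 (E7), 5933 (E8) and 6108 (E9). In HCC1937, ND2 had 1633, 1697 and 1762 CPM without and 3451, 3431 and 3345 with extract. In both lines every extract library lay above every control. ND2 had a log2 fold change of 3.25 ± 0.42 (SE) in MDA-MB-231, and 2.38 ± 0.032 without E7.

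In MDA-MB-231, ND4 had 8909, 8559 and 8678 CPM without extract and 23690 (E7), 7212 (E8) and 7409 (E9) with it. So E7 lay above all controls while E8 and E9 lay below all of them, and the log2 fold change was 0.55 ± 0.36 with E7 and −0.25 ± 0.030 without it. In HCC1937, ND4 had 4690, 4941 and 5019 CPM without and 5424, 5619 and 5334 with extract, groups that did not overlap but differed little.

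ND5 is the longest of these genes. It had 1306, 1265 and 1275 CPM in the MDA-MB-231 controls and 4199 (E7), 3022 (E8) and 3108 (E9) with extract. In HCC1937 it had 1992, 2139 and 2100 CPM without and 3092, 3114 and 3017 with extract. E7 was closer to E8 and E9 here than for ND2 or ND4, and the MDA-MB-231 log2 fold change of 1.42 ± 0.12 was 1.26 ± 0.030 without E7.

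ND1 lies where the quinone channel meets the membrane arm. The MDA-MB-231 controls had 237, 219 and 229 CPM, and with extract there were 7012 (E7), 1853 (E8) and 1949 (E9). In HCC1937 it had 895, 945 and 941 CPM without and 1942, 1952 and 1798 with extract. The untreated HCC1937 cells thus had several times more ND1 than the untreated MDA-MB-231 cells, while with extract E8, E9 and the HCC1937 libraries overlapped in range. The log2 fold change in MDA-MB-231 was 3.98 ± 0.45, or 15.8-fold, and 3.06 ± 0.039 without E7.

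ND3, a small subunit beside ND1, had 440, 380 and 382 CPM in the MDA-MB-231 controls and 7085 (E7), 1808 (E8) and 1780 (E9) with extract. In HCC1937 it had 375, 356 and 356 CPM without and 836, 803 and 843 with extract. The controls of the lines lay close together, and in each line all extract libraries were above them. In MDA-MB-231 the log2 fold change was 3.15 ± 0.45, and 2.17 ± 0.046 without E7.

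ND4L and ND6 are small subunits of the same part of the arm. ND4L had 719, 599 and 681 CPM in the MDA-MB-231 controls and 832 (E7), 551 (E8) and 634 (E9) with extract, and these groups overlapped. In HCC1937 it had 369, 342 and 348 CPM without and 431, 384 and 458 with extract. Its log2 fold change in MDA-MB-231 was 0.01 ± 0.14, and −0.16 ± 0.064 without E7. ND6 had 412, 382 and 389 CPM in MDA-MB-231 controls against 2176 (E7), 693 (E8) and 673 (E9) with extract, a log2 fold change of 1.58 ± 0.36, and of 0.80 ± 0.037 without E7. In HCC1937, ND6 had 554, 526 and 527 CPM without and 808, 820 and 814 with extract.

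CYTB, the complex III gene, had the largest difference of the 8 between the effects in the 2 lines. The MDA-MB-231 controls had 299, 284 and 277 CPM and the extract libraries 7541 (E7), 2271 (E8) and 2331 (E9). In HCC1937 it had 1980, 2052 and 2069 CPM without and 2682, 2750 and 2589 with extract. The extract libraries E8 and E9 came to a level near that of HCC1937 from controls that were far below it. The log2 fold change in MDA-MB-231 was 3.82 ± 0.40, or 14.1-fold, and 3.01 ± 0.035 without E7.

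**Figure D1:**
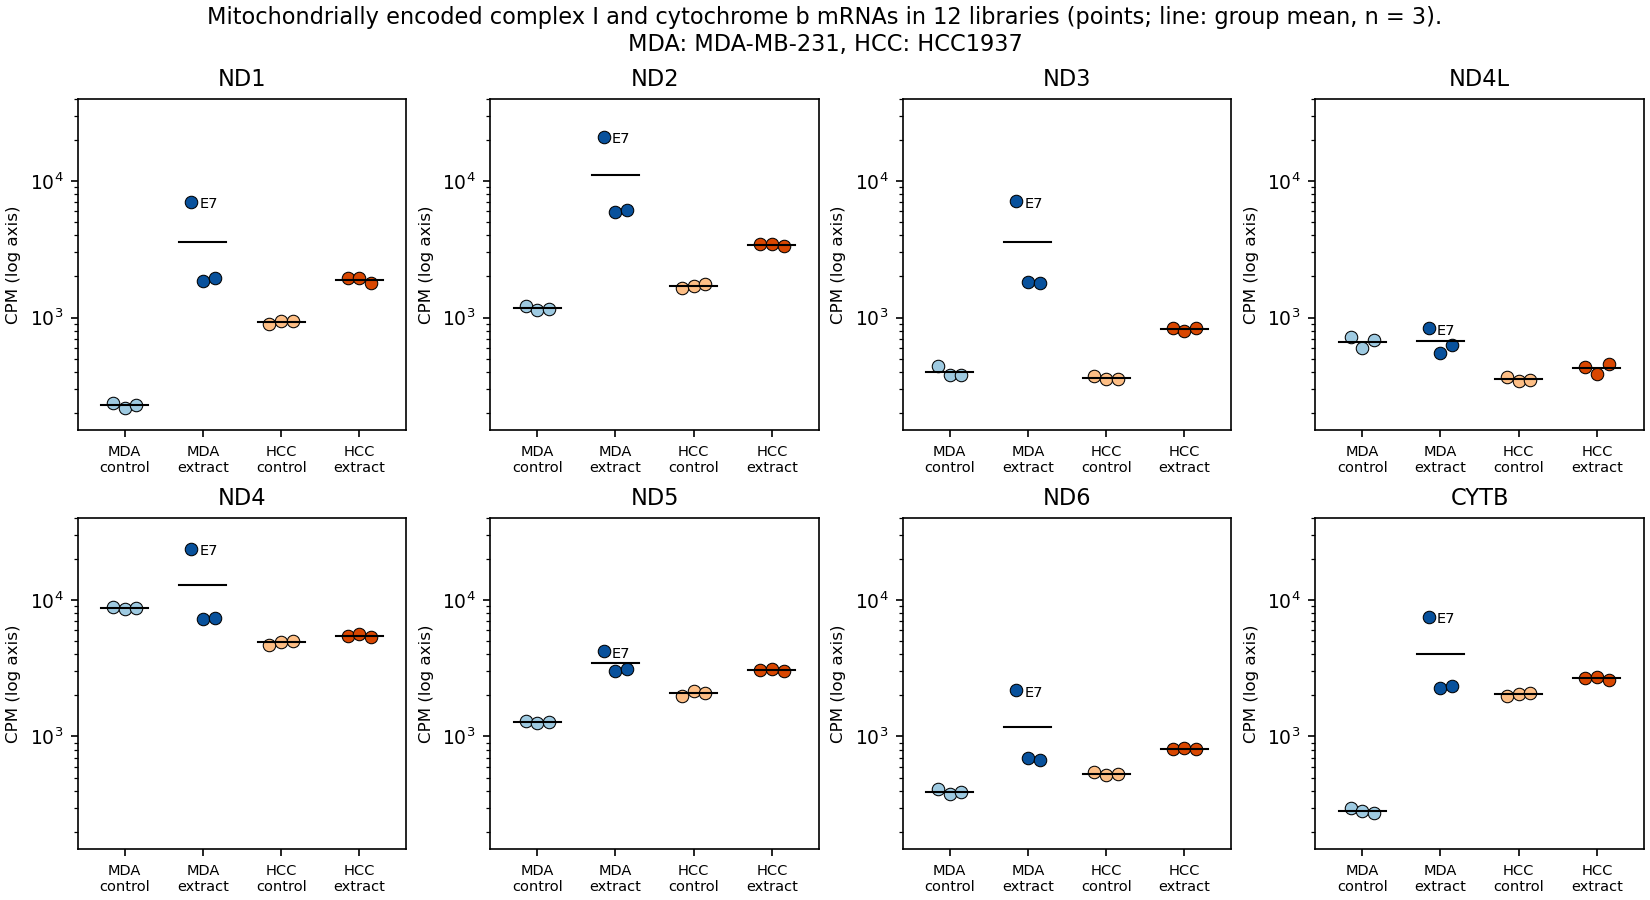
CPM of each of the 8 genes (log axis) in the 12 libraries, as points by group with a line at the group mean (n = 3). E7 stands above E8 and E9 in all 8 panels, and the HCC1937 points lie close together, for example ND1 at 895 to 945 CPM without and 1798 to 1952 with extract.

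With extract in MDA-MB-231, 6 of the 8 genes (all but ND4 and ND4L) were past an adjusted p of 0.05 upwards and 0 downwards, where 33% of the 14133 tested genes were higher and 32.8% were lower at that threshold. This contrast selected the set, so nothing is read from that count. The median log2 fold change of the 8 genes was 2.37, against 0.00 for all tested genes, and without E7 it was 1.72 against 0.00. With library totals alone as the scale, the log2 fold changes ran from −0.31 (ND4L) to 3.57 (ND1). Without E7 the upward count was again 6, where 37.3% of all tested genes were higher. ND4 and ND4L passed downwards in that fit (37.2% of all tested genes were lower). Nothing is read from these counts either. E7 had 3.18 to 3.95 times the mean CPM of E8 and E9 for ND1, ND2, ND3, ND4, ND6 and CYTB, but 1.40 times for ND4L and 1.37 times for ND5, the shortest and the longest of the 8 genes.

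The set was not put forward on extract against control in HCC1937, so that contrast was tested. There ND1, ND2, ND3 and ND5 rose with extract, that is 4 of 8, where 32.7% of all tested genes rose and 39.1% fell. None of the 8 fell. ND3 had the highest value with TMM, a log2 fold change of 1.19 ± 0.42 or 2.28-fold (edgeR quasi-likelihood test, Benjamini-Hochberg adjusted p = 0.0244), while with a length and GC offset ND2 (1.05) was above ND3 (0.69). ND1 rose 2.05-fold (log2 1.03 ± 0.40, edgeR adjusted p = 0.0359) and ND2 2.01-fold (log2 1.01 ± 0.39, edgeR adjusted p = 0.0348). ND5 rose 1.48-fold with a smaller error (log2 0.57 ± 0.12, edgeR adjusted p = 0.00123).

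The other 4 genes did not pass in HCC1937. Their log2 fold changes were 0.60 ± 0.35 for ND6, 0.39 ± 0.36 for CYTB, 0.27 ± 0.14 for ND4L and 0.16 ± 0.36 for ND4, with edgeR adjusted p of 0.143, 0.343, 0.107 and 0.707. On the TMM scale all 8 genes had each extract library above each control. The share of all tested genes that did so is not given here, so nothing is read from that count. The fit shares its estimate of spread over the 4 groups, E7 included. When E7 was left out of the fit all 8 passed upwards (38.1% of tested genes did), the error of ND1 went from 0.40 to 0.034, and the log2 fold changes hardly moved (ND1 1.06, CYTB 0.42, ND4 0.18). With any 1 HCC1937 library left out, 1 or 2 of the 8 passed, where at least 29.9% of tested genes rose in each of these fits, so that count is not above the background.

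The HCC1937 rises depend on how the libraries are scaled. TMM factors were 1.16 to 1.17 in the HCC1937 controls and 0.846 to 0.851 with extract, and the share of all counts that fell on the 8 genes was 1.49 ± 0.0323% without and 1.58 ± 0.0339% with extract (SD, n = 3). With library totals alone as the scale, an alternative chosen after seeing the data, 0 of 8 passed (20.4% of tested genes rose), ND3 had a log2 fold change of 0.74, ND1 of 0.58 and ND2 of 0.55. On that scale ND4, ND4L and CYTB turned to −0.29, −0.19 and −0.06, and the median of all tested genes was −0.61 in place of −0.16. The median of the 8 genes was 0.59 with TMM and 0.13 with library totals, above that of all tested genes on both scales.

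**Figure D2:**
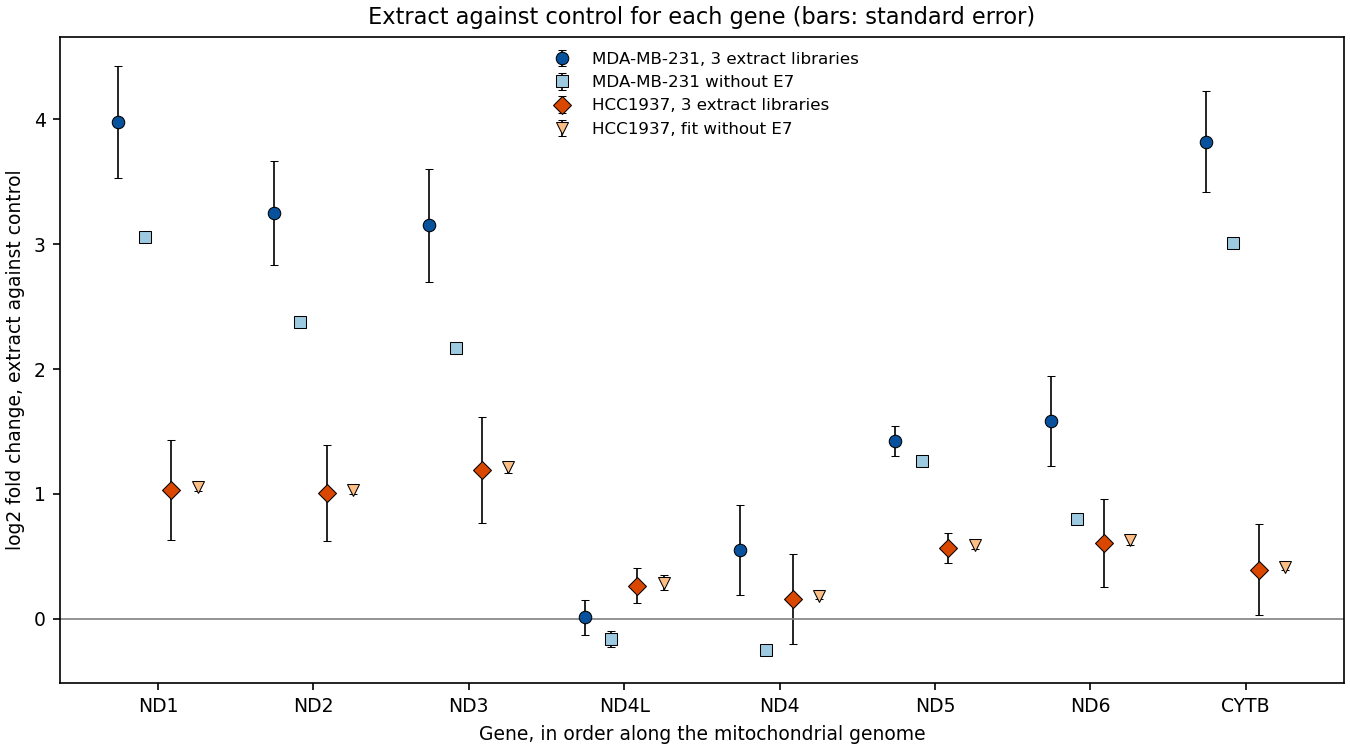
Log2 fold change of extract against control for the 8 genes in order along the mitochondrial genome, with the standard error, in MDA-MB-231 and HCC1937, each from the fit with and without E7. ND1, ND2, ND3 and CYTB lie highest in MDA-MB-231, ND4 and ND4L near zero, and the HCC1937 points keep their place without E7 while their bars shrink.

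Before any extract the lines already differed. HCC1937 controls against MDA-MB-231 controls had CYTB 7.10-fold higher (log2 2.83 ± 0.39, edgeR adjusted p = 3.6e-05), ND1 4.06-fold higher (log2 2.02 ± 0.41, edgeR adjusted p = 0.000828) and ND5 1.62-fold higher (log2 0.70 ± 0.12, edgeR adjusted p = 0.000255). ND4L was 1.89-fold lower in HCC1937 (log2 −0.92 ± 0.14, edgeR adjusted p = 9.15e-05). ND4, at −0.84 ± 0.36, did not pass (edgeR adjusted p = 0.0544), nor did ND2 (0.54), ND6 (0.44) or ND3 (−0.14). That is 3 of 8 higher and 1 of 8 lower, where 38.7% and 36.7% of all tested genes were, so the counts do not set these genes apart. Without E7 in the fit 5 were higher and 3 lower (43.4% of tested genes each way). With a length and GC offset ND4L was −0.26 ± 0.24 and did not pass (edgeR adjusted p = 0.327). ND4 passed downwards in that fit, at −0.66 ± 0.20 (edgeR adjusted p = 0.00791). The comparison of the untreated lines uses the same MDA-MB-231 control libraries as the contrast that selected the set. Its differences and the MDA-MB-231 rises are thus not independent of each other. ND1 and CYTB were put forward for their rise over those control libraries, which favours genes that are low there. Their p-values between the lines are therefore not those of an unselected test, and nothing is read from them.

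The effect of extract in HCC1937 minus that in MDA-MB-231 was −3.43 ± 0.53 for CYTB and −2.95 ± 0.57 for ND1 on the log2 scale, and −2.59 ± 0.045 and −2.01 ± 0.051 without E7. For ND2 it was −2.24 ± 0.55 and for ND3 −1.96 ± 0.60, and −1.35 and −0.96 without E7. ND5 (−0.86 ± 0.17) and ND6 (−0.98 ± 0.50) had smaller differences, and that of ND6 was −0.17 without E7. ND4 went from −0.39 ± 0.51 to 0.43 ± 0.040 without E7, and ND4L from 0.25 ± 0.20 to 0.45 ± 0.086. These differences hold the contrast that selected the set and are given without a p-value.

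Levels of different genes were compared per kilobase of coding length. In MDA-MB-231 controls ND4 led with 6324 ± 129 CPM per kb (SD, n = 3), followed by ND4L with 2244 ± 207, ND3 with 1157 ± 99.4, ND2 with 1118 ± 33.5, ND6 with 751 ± 29.9, ND5 with 708 ± 11.8, CYTB with 251 ± 10.0 and ND1 with 239 ± 9.38. The libraries of ND3 and ND2 overlapped, as did those of CYTB and ND1, and the other neighbours in that order did not. The highest gene stood 26.1 to 27.1 times above the lowest in the 3 control libraries. ND1 at the start and CYTB at the end of the coding strand were the low ones.

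In HCC1937 controls the levels lay much closer, with a ratio of 3.63 to 3.70 between ND4 and ND1. ND4 had 3544 ± 125 CPM per kb, CYTB 1782 ± 41.4, ND2 1629 ± 62.0, ND4L 1189 ± 46.6, ND5 1146 ± 42.2, ND3 1048 ± 32.6, ND6 1020 ± 30.3 and ND1 from 936 to 988. ND4L overlapped with ND5, and ND3 with ND6. CYTB stood next to last in the MDA-MB-231 order and came second here.

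With extract the order changed in both lines. In HCC1937 it was ND4 with 3961 ± 106 CPM per kb, ND2 with 3272 ± 54.0, ND3 with 2391 ± 62.4, CYTB with 2343 ± 70.9, ND1 with 1985 ± 90.3, ND5 with 1697 ± 28.2, ND6 with 1551 ± 11.2 and ND4L with 1429 ± 126. ND3 and CYTB overlapped, as did ND6 and ND4L. In MDA-MB-231 with extract the 3 libraries of each gene overlapped with those of its neighbour, and E7 lay far above the others for most of them. The ratio of highest to lowest gene was 4.31 in E8, 4.57 in E9 and 8.84 in E7.

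The ratio of ND4 to ND1 per kb shows the shift within single libraries. It was 26.1, 27.1 and 26.2 in the MDA-MB-231 controls and 2.34 (E7), 2.70 (E8) and 2.64 (E9) with extract. In HCC1937 it went from 3.64, 3.63 and 3.70 to 1.94, 2.00 and 2.06. ND4 to CYTB went from 25.2 ± 0.680 (SD, n = 3) to 2.60 (E7), 2.63 (E8) and 2.63 (E9) in MDA-MB-231, so E7 lay next to E8 and E9 in this ratio. By contrast ND4L to ND4, which share an mRNA, stayed at 0.321 to 0.375 in all controls, 0.355 in E8, 0.397 in E9 and 0.317 to 0.399 in HCC1937 with extract, and was lower only in E7 at 0.163.

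**Figure D3:**
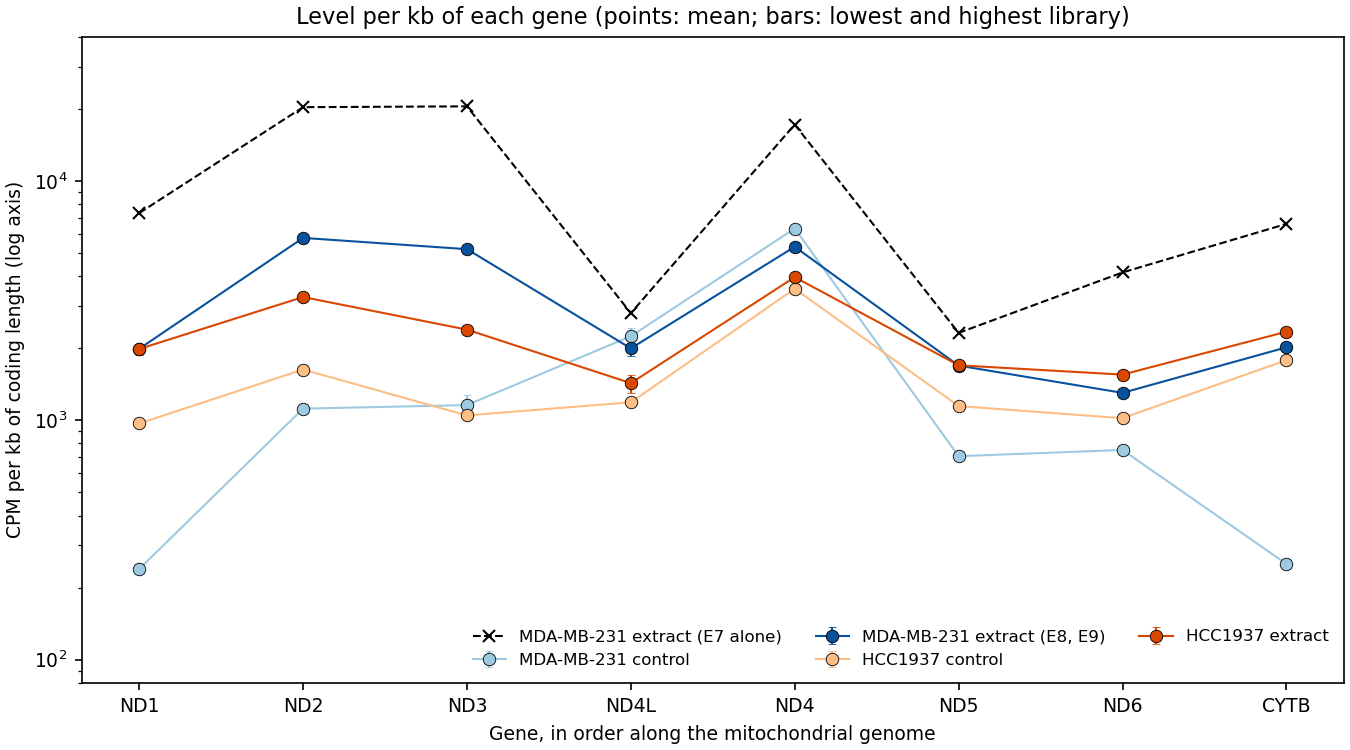
CPM per kb of coding length (log axis) of the 8 genes in order along the mitochondrial genome, as group means with bars from the lowest to the highest library. E7 is drawn apart from E8 and E9. MDA-MB-231 controls run from 239 (ND1) to 6324 (ND4), a wider span than any other group.

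Shares of the reads of all 13 mitochondrial mRNAs do not depend on the scaling of libraries. The 8 genes held 52.4 ± 0.261% of these reads in the MDA-MB-231 controls and 50.6 ± 1.52% with extract, and 41.3 ± 0.149% and 40.8 ± 0.519% in HCC1937 (SD, n = 3). The groups overlapped in both lines for that total, in MDA-MB-231 through E7 alone: E7 had 52.3%, within the controls, and E8 (49.8%) and E9 (49.6%) lay below all of them. ND1, ND2, ND3 and CYTB together had 8.50, 8.23 and 8.18% in the MDA-MB-231 controls and 30.4% (E7), 25.3% (E8) and 25.1% (E9) with extract. In HCC1937 they had 16.1% in each control and 19.7, 19.1 and 19.2% with extract. These 4 genes were grouped after their values were seen, so no test is given.

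ND4 held a smaller share with extract in both lines. Its share was 34.7, 34.8 and 34.9% in the MDA-MB-231 controls and 16.8% (E7), 15.4% (E8) and 15.3% (E9) with extract. In HCC1937 it was 15.5, 15.8 and 15.8% without and 12.0, 12.0 and 11.9% with extract. ND4L, on the same mRNA, went from 2.66 ± 0.195 to 1.03 ± 0.383% in MDA-MB-231 and from 1.13 ± 0.0719 to 0.933 ± 0.104% in HCC1937.

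ND1 went from 0.912 ± 0.0181 to 4.32 ± 0.570% of these reads in MDA-MB-231 and from 2.98 ± 0.0344 to 4.16 ± 0.139% in HCC1937. ND2 went from 4.65 ± 0.0394 to 13.4 ± 1.38% and from 5.45 ± 0.0743 to 7.48 ± 0.158%. ND3 went from 1.60 ± 0.101 to 4.19 ± 0.733% and from 1.16 ± 0.0661 to 1.82 ± 0.0908%. The shares of these 3 genes were thus higher with extract in both lines.

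CYTB moved in opposite directions. Its share was 1.16, 1.15 and 1.11% in the MDA-MB-231 controls and 5.35% (E7), 4.84% (E8) and 4.82% (E9) with extract, and 6.54, 6.55 and 6.50% in HCC1937 controls and 5.94, 5.87 and 5.79% with extract. ND5 had 5.12 ± 0.0293% in MDA-MB-231 controls, 2.98% in E7, 6.45% in E8 and 6.42% in E9, so that E7 lay below and the others above the controls. ND6 had 1.57 ± 0.0272% there and 1.47 ± 0.0767% with extract. In HCC1937, ND5 (6.67 ± 0.139 and 6.75 ± 0.0976%) and ND6 (1.72 ± 0.0949 and 1.79 ± 0.0351%) overlapped between the groups.

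Shares were compared by exact two-sided permutation tests in HCC1937, where 3 against 3 libraries cannot give a p below 0.1. ND1, ND2, ND3, ND4, ND4L and CYTB reached that smallest exact p of 0.1, adjusted to 0.133 over the 8 genes, so none could pass 0.05. ND5 had an exact p of 0.5 and ND6 of 0.4. Between the untreated lines all 8 shares reached the smallest exact p of 0.1, with ND4 at 34.8 ± 0.0907% in MDA-MB-231 and 15.7 ± 0.157% in HCC1937.

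**Figure D4:**
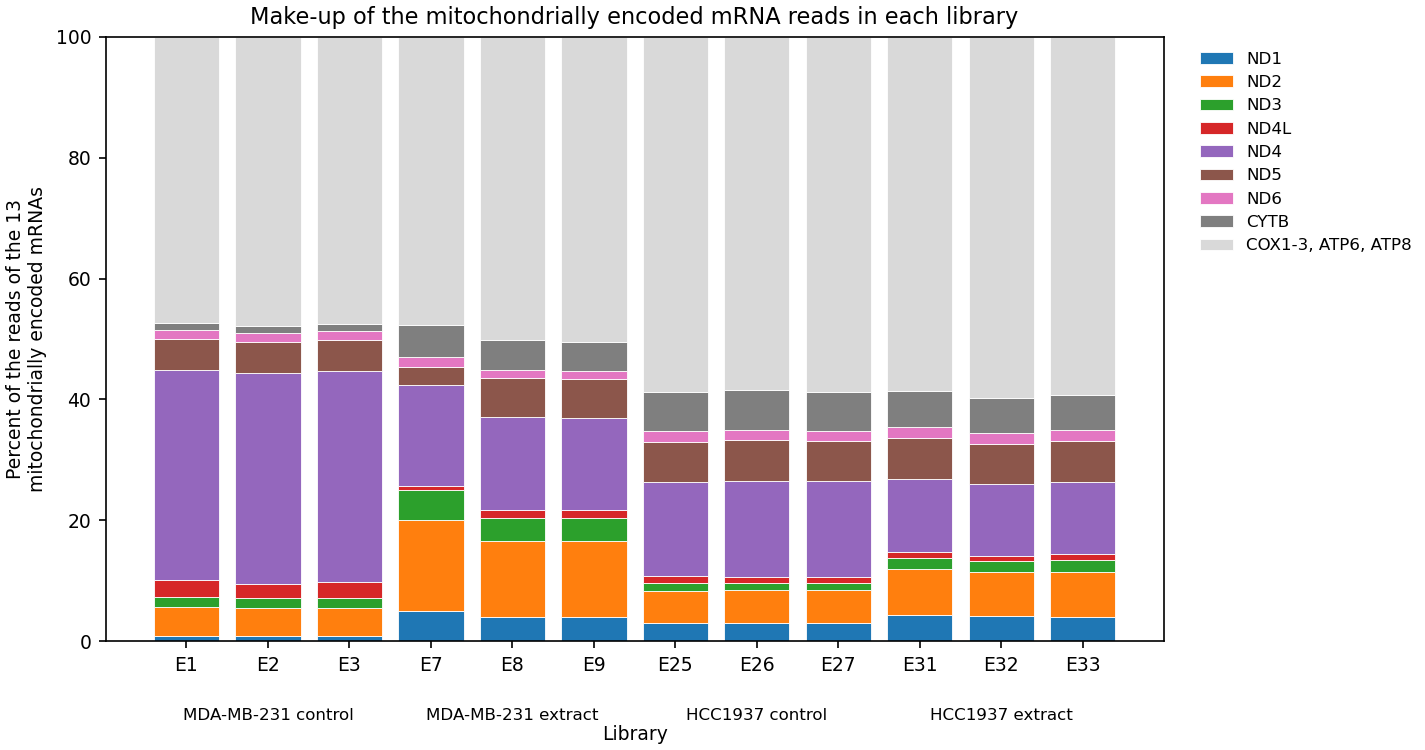
Percent of the reads of the 13 mitochondrially encoded mRNAs that fell on each of the 8 genes and on the 5 others together, in each of the 12 libraries as stacked bars from 0 to 100%. The ND4 segment shrinks from 34.7 to 34.9% in E1 to E3 to 15.3 to 16.8% in E7 to E9, while those of ND1, ND2, ND3 and CYTB widen.

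The other 5 mitochondrial mRNAs, for subunits of cytochrome c oxidase and ATP synthase, were measured beside them. All 5 passed upwards in MDA-MB-231, where 33% of all tested genes were higher, and 5 passed without E7, where 37.3% were. Their log2 fold changes ran from 1.07 ± 0.19 (COX1) to 2.27 ± 0.38 (COX3). That range lies between those of ND4 or ND4L and of ND1 or CYTB. E7 had 1.79 times the mean CPM of E8 and E9 for COX1 and 3.28 times for COX3, and COX3 had 17751 (E7), 5283 (E8) and 5527 (E9) CPM against 1886 to 2020.3 in the controls. In HCC1937 COX2 (1.00 ± 0.35) and ATP8 (0.74 ± 0.21) rose (edgeR adjusted p = 0.0239 and 0.00865), and COX1 (0.34), COX3 (0.46) and ATP6 (0.67) did not pass. Of all tested genes, 32.7% rose in HCC1937 in the main fit. Without E7 in the fit 5 of 5 passed in HCC1937 (38.1% of all tested genes), and with library totals alone 0 of 5 (20.4%). The mitochondrial ribosomal RNAs were not analysed here.

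Transcripts of like size and base composition gave a further comparison. The 8 coding regions are 297 to 1812 bases long with 40.2 to 47.7% G and C. In 460 tested nuclear genes the longest protein-coding transcript, taken whole and not as its coding region alone, lies in both ranges. Their median log2 fold change was 0.33 in MDA-MB-231, with 90% of them between −1.80 and 1.38, and 0.06 in HCC1937, with 90% between −1.84 and 1.31. The MDA-MB-231 contrast selected the set, so its values are only described and nothing is read from where they lie. In MDA-MB-231 the values of ND1, ND2, ND3, ND5, ND6 and CYTB lie above the upper bound. In HCC1937, which did not select the set, none of the 8 lies above the upper bound. Without E7 the MDA-MB-231 values of ND5 (1.26) and ND6 (0.80) fall below that bound, which was computed with E7.

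Nuclear genes of the same complexes were counted against the shares given above, 33% higher and 32.8% lower of all tested genes in MDA-MB-231 and 32.7% and 39.1% in HCC1937. Of 37 nuclear complex I subunits, 23 rose and 2 fell in MDA-MB-231 and 27 rose and 1 fell in HCC1937, with medians of 0.82 and 0.88 on the log2 scale, and of 9 nuclear complex III subunits, 6 rose and 1 fell in MDA-MB-231 and 7 rose and 1 fell in HCC1937. Without E7, 8 complex I and 2 complex III subunits fell in MDA-MB-231, where 37.2% of all tested genes were lower in that fit. With library totals alone, 22.9% of all tested genes were higher and 40.0% lower in MDA-MB-231, and 20.4% and 49.7% in HCC1937. On that scale 16 complex I subunits rose in HCC1937. NDUFA5, an accessory subunit of the arm that holds the iron-sulfur clusters, fell by 1.20 in MDA-MB-231 and by 1.99 in HCC1937, where it was the 1 subunit that fell. CYC1, which encodes cytochrome c1 and is a direct partner of cytochrome b, rose by 1.13 ± 0.12 and 1.90 ± 0.12, and UQCRC1, a core subunit, by 0.53 ± 0.11 and 1.35 ± 0.11.

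Assembly factors were mixed. Of 16 for complex I, 9 rose and 2 fell in MDA-MB-231 and 9 rose and 3 fell in HCC1937, and of 6 for complex III, 5 rose and 1 fell in MDA-MB-231 and 4 rose and 2 fell in HCC1937. With library totals alone 4 of the 16 rose and 4 fell in HCC1937, as did 2 and 2 of the 6. Of all tested genes, 20.4% were higher and 49.7% lower there on that scale. Without E7 4 of the 16 fell in MDA-MB-231, where 37.2% of all tested genes were lower. ECSIT, which helps to assemble the membrane arm, rose by 1.05 ± 0.13 in MDA-MB-231 and 1.78 ± 0.13 in HCC1937, and FOXRED1 by 0.56 ± 0.088 and 0.81 ± 0.087. UQCC3, needed to build cytochrome b into complex III, rose by 1.98 ± 0.32 and 1.81 ± 0.31. Its MDA-MB-231 value was 1.35 without E7. LYRM7, which hands on the Rieske subunit at a later step, fell by 0.79 in MDA-MB-231 and fell by 2.21 in HCC1937.

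Factors that make and keep mitochondrial RNA did not move together. Of 6 genes of mitochondrial transcription, 2 rose and 1 fell in MDA-MB-231 and 1 rose and 3 fell in HCC1937. With library totals alone 1 rose and 2 fell in MDA-MB-231 and 1 rose and 5 fell in HCC1937. On that scale 40.0% of all tested genes were lower in MDA-MB-231 and 49.7% in HCC1937. POLRMT, the mitochondrial RNA polymerase, had 59.7, 61.7 and 59.0 CPM in the MDA-MB-231 controls and 150, 154 and 147 with extract, and rose by 1.32 ± 0.077 there and by 1.67 ± 0.078 in HCC1937 (edgeR adjusted p = 4.45e-08 and 6.36e-09). TFAM, which packs the mitochondrial genome and starts its transcription, went the other way, from 87.7, 81.8 and 85.0 CPM to 46.4, 40.0 and 42.1, and fell by 0.99 in MDA-MB-231 and by 1.77 in HCC1937 (edgeR adjusted p = 6.22e-06 and 4.99e-08). E7 did not stand apart for either gene.

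Of 20 genes for processing and stability of mitochondrial RNA, 11 rose and 5 fell in MDA-MB-231 and 9 rose and 8 fell in HCC1937. With library totals alone 5 rose and 10 fell in HCC1937, where 20.4% of all tested genes were higher and 49.7% lower. LRPPRC, which binds and stabilises mitochondrial mRNAs other than ND6, had 230, 252 and 243 CPM in the MDA-MB-231 controls and 69.5, 81.4 and 85.6 with extract. It fell by 1.61 there and by 1.89 in HCC1937 (edgeR adjusted p = 3.44e-08 and 8.59e-09). Its partner SLIRP was higher by 0.89 ± 0.32 in MDA-MB-231 (edgeR adjusted p = 0.0294), but by 0.21 without E7 (edgeR adjusted p = 0.00483). In HCC1937 SLIRP had 0.55 ± 0.32 (edgeR adjusted p = 0.141). Without E7 in the fit it had 0.57 there and passed (edgeR adjusted p = 1.81e-10). With library totals alone SLIRP did not pass in either line.

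ELAC2, which cuts tRNAs out of the long RNA at their 3′ ends, rose by 1.19 ± 0.065 and 1.56 ± 0.066. TBRG4, a relative of FASTK, rose by 1.20 ± 0.075 and 1.77 ± 0.076. FASTK, which is needed for the ND6 mRNA, had smaller values of 0.49 ± 0.11 and 0.34 ± 0.11 that were lost with library totals alone in MDA-MB-231 (0.18, edgeR adjusted p = 0.146) and turned to −0.11 in HCC1937 (edgeR adjusted p = 0.342). Of 9 genes that maintain mitochondrial DNA, 5 rose and 2 fell in MDA-MB-231 and 6 rose and 2 fell in HCC1937. With library totals alone 3 rose and 2 fell in MDA-MB-231 (22.9% and 40.0% of all tested genes). In HCC1937 4 rose and 3 fell on that scale (20.4% and 49.7%). TWNK, the mitochondrial helicase, rose by 2.33 ± 0.087 and 1.96 ± 0.085, and RRM2B, which supplies nucleotides, fell by 1.50 in MDA-MB-231 and fell by 2.23 in HCC1937. The amount of mitochondrial DNA was not measured.

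The 8 genes did not form a uniform group over the libraries. The correlation of log2 CPM of each gene with the mean of the other 7 over the 12 libraries was 0.99 for ND2, 0.96 for ND6, 0.92 for ND3 and ND1, 0.91 for ND5 and 0.78 for CYTB, but 0.42 for ND4 and 0.17 for ND4L, and −0.44 and −0.32 for the latter pair over the 11 libraries without E7. ND1 and ND5 had the highest pairwise value, 0.99 with and without E7, and ND4 and ND4L had 0.87 with and 0.96 without it. The nuclear genes most like the mean of the 8 over the 12 libraries were DNAJC17 (0.99), MRPL3 (0.98), SRSF7 (0.98), CWF19L1 (0.98) and PPP2CB (0.98), with 0.97, 0.99, 0.97, 0.96 and 0.96 without E7. Of the other mitochondrial mRNAs, COX3 and ATP6 had 0.99 each, COX2 0.94, ATP8 0.92 and COX1 0.88. Without E7 COX3 and ATP6 again had 0.99, COX2 0.89, ATP8 0.93 and COX1 0.84. These values describe 4 groups more than 12 separate points, since the libraries of a group share their treatment, and carry no p-value.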

How the data were processed

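Per the labels' protocols, poly-T beads captured the mRNA, though a total RNA kit is named. The deposited table holds expected counts per gene, estimated by the authors with Salmon 1.10.3 on GRCh38 after FastQC 0.12.1 and fastp 0.23.4, per the submitters' processing notes, which also name DESeq2 and R 4.4.1. Which annotation was used is not given in the sources used here. In all, the deposited file lists 19517 genes, 1 of them without a symbol and left out. Of all values, 52.8% were not whole and were rounded, by at most 0.5. Groups came from the sample titles.

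Counts were fitted in R 4.3.3 with edgeR 4.0.16: filterByExpr left 14133 genes, all 8 members among them, libraries were scaled by TMM, and 1 model of 4 groups was tested by the quasi-likelihood F test, with Benjamini-Hochberg adjustment over all genes and a threshold of 0.05. Rises and falls without an SE or p beside them passed it. Log2 CPM for correlations used a prior count of 2. Shares are rounded counts over those of the 13 mitochondrial mRNAs. The script was tested on simulated counts. Alternatives were RLE factors, scaling from nuclear genes, no filter, a length and GC offset (mgcv 1.9.3, GENCODE 29, 99.4% of tested genes), only the groups compared, DESeq2 1.42.0, each library left out and, for shares, another denominator. Library totals without TMM were added after seeing the data.

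The 8 genes and the gene lists were chosen with earlier results of these data known. Genes named are the 8, the 5 other mitochondrial mRNAs, of each pathway list the 2 with the smallest p in HCC1937, LRPPRC, SLIRP, FASTK, POLRMT and TFAM, and the 5 nuclear genes that correlate best with the mean of the 8. Of the genes this rule names, 1 is not reported here.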

Additional observations from a re-analysis of the deposited data

Results flagged for a closer look

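The share of CYTB among the reads of the 13 mitochondrial mRNAs moved in opposite ways in the 2 lines: with extract every MDA-MB-231 library was above its controls and every HCC1937 library below its controls. The log2 ratio of extract to control in HCC1937 minus that in MDA-MB-231 was −2.28. The difference was not tested.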

How the results depend on the processing

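Of 1106 alternatives, 958 kept direction and call and, for values without a test and counts, stayed within 1 SD or 1.5 times. A further 37 moved further, 53 gained and 38 lost the threshold, and 20 turned direction. ND4L in MDA-MB-231 has no stable direction, with log2 fold changes of −0.0029 (RLE), −0.0036 (DESeq2), −0.55 (length and GC offset), −0.31 (library totals), −0.057 (without E2) and −0.16 (without E7). ND4 in MDA-MB-231 was −0.25 without E7, and the difference of ND4 between the lines was 0.061 with the offset and 0.43 without E7. With the offset ND4L in HCC1937 was −0.46 and ND3 between the untreated lines 0.60. With library totals ND4, ND4L, CYTB and FASTK in HCC1937 were −0.29, −0.19, −0.058 and −0.11. With 1 library left out, ND4 in MDA-MB-231 ran from −0.25 to 0.84, ND4L there from −0.16 to 0.14, and the difference of ND4 between the lines from −0.66 to 0.43. The cause was not tested.

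In HCC1937 the median of the 8 was 0.68 with RLE and with DESeq2, 0.41 with the offset, 0.13 with library totals and 0.64 from the HCC1937 libraries alone, and 0 (library totals, 20.4% of all tested genes) or 8 (HCC1937 libraries alone, 42.5%) passed upwards. Leaving out 1 library gave 1 to 8 (29.9 to 38.1%): 8 without E7, 1 without E25, E26, E27 or E33 and 2 without E31 or E32. Between the untreated lines the median was 0.42 (RLE and DESeq2), 0.80 (offset) or 0.54 (library totals). There 6 (offset, 41.3% of all tested genes) or 5 (control groups alone, 44.4%) passed upwards, and 3 to 5 with 1 library left out (36.0 to 43.4%). Downwards 2 (RLE, 38.7%, DESeq2, 29.2%, and library totals, 34.4%) or 3 (control groups alone, 44.3%) passed, and 1 to 3 with 1 library left out (33.7 to 43.4%). The DESeq2 share is over all 19516 genes with a symbol, also those without reads, so it cannot be set beside the other shares. In MDA-MB-231 the number past the threshold downwards was 1 with library totals (40.0% of all tested genes) and 0 to 2 with 1 library left out (29.7 to 37.2%). That contrast selected the set, so nothing is read from these counts. The median difference between the lines ran from −1.77 to −0.82 with 1 library left out, the latter without E7.

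With the reads of the other 5 mitochondrial mRNAs as the denominator, the log2 ratio of the share of the 8 together was −0.11 in MDA-MB-231 and −0.65 between the untreated lines, and ND5 (MDA-MB-231) was −0.022, ND2 (lines) −0.075 and ND6 (lines) −0.18. The ND5 share in MDA-MB-231 ran from −0.12 (without E8 or E9) to 0.33 (without E7). In HCC1937 the median of all tested genes was −0.16 with TMM, 0.00 with the offset, −0.05 from the HCC1937 libraries alone and −0.61 with library totals. No paired analysis was made, because the labels state no pairing of libraries and each library has its own number.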
